A study of Bos taurus with 12 samples.

Results

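MiR-132 and miR-212 are a pair of related miRNAs, and both were read in mammary gland biopsies of dairy cows by small RNA sequencing. The members were found by name in the deposited table, as the mature miRNAs bta-miR-132 and bta-miR-212, and each had 1 precursor entry. They are 2 of 388 mature miRNAs in the table, which lists 426 entries of a mature miRNA with its precursor. All 12 cows were healthy multiparous Chinese Holstein cows, 1 library each, and the 4 groups of 3 differed in milk protein percentage and in stage. HP cows (high) and LP cows (low) were lactating and were biopsied at 70 to 85 days in milk. HD cows (high) and LD cows (low) were not lactating and were biopsied 20 to 39 days before calving and 24 to 35 days after dry-off, by the study's list of cows. Different cows gave the lactating and the non-lactating libraries, and the age of each cow was not given in the sources used here.

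In mammals the miR-132 and miR-212 hairpins lie next to each other and are cut from 1 primary transcript. That transcript is known to be switched on through the transcription factor CREB and by stimulation, and the pair has been studied in neurons, in immune cells after an inflammatory stimulus and in vessel endothelium. In the mouse mammary gland the family has been studied for its part in duct growth through the stroma. The products of the 3′ arms of both hairpins share a seed in mouse and human, so they can bind common target mRNAs. The deposited bovine names give no arm. In the RefSeq gene table of the ARS-UCD2.0 assembly both genes were found, MIR132 and MIR212, as neighbours on chromosome 19 between OVCA2 and HIC1.

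Levels are given as TPM, the authors' name for a read share scaled to a common total for each library, without correction for length (RPM). Depth, and the read numbers given for single values, were inferred from the step that 1 read makes in the low values. HP libraries had an inferred total of about 6027000 to 12260000 reads and LP libraries 7928000 to 13374000. For HD libraries it was 11048000 to 23578000 and for LD libraries 14327000 to 21521000. This total was larger in 5 of the 6 non-lactating libraries than in every lactating one, and HD1 lay within the lactating range. The paper reports nearly equal numbers of clean reads across libraries, so these totals do not measure sequencing depth. A level of 3 reads corresponded to between 0.127 and 0.498 TPM. These limits, and the Poisson intervals drawn with the levels, rest on the inferred reads and cover counting error only. The tissue was checked against marker miRNAs: the 8 epithelial miRNAs (the miR-200 family, miR-205, miR-148a and miR-375) summed to 31079 to 236848 TPM, and none of the 8 was absent from any library.

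MiR-132 was a miRNA of middling abundance and miR-212 a rare one. By mean TPM over the 12 libraries miR-132 ranked 215 of 388 with 15.1 TPM, and miR-212 ranked 334 with 1.51 TPM. Within single libraries miR-132 ranked from 173 to 249.

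For miR-132, the HP libraries read 14.6, 5.30 and 11.6 TPM, and the LP libraries read 7.48, 20.1 and 6.69 TPM. The HD libraries read 30.1, 11.9 and 6.32 TPM, and the LD libraries 52.1, 10.2 and 4.88 TPM. The highest and the lowest of all 12 values were thus both LD libraries, and all 4 groups overlapped. The number of reads behind a miR-132 value ran from 53 to 746, so counting error was small beside the spread between cows.

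For miR-212, the HP libraries read 0.66, 0.33 and 0 TPM, from 4, 4 and 0 reads. The LP libraries read 0.90, 1.07 and 0.50 TPM, from 12, 12 and 4 reads. The HD libraries read 2.62, 1.36 and 1.99 TPM, from 29, 30 and 47 reads, and the LD libraries 4.05, 1.35 and 3.25 TPM, from 58, 29 and 68 reads. Every non-lactating library stood above every lactating one, whereas HP overlapped LP and HD overlapped LD. The HP library at 0 allows a level of up to 0.293 TPM by the limit of 3 reads, or 0.36 TPM by the two-sided Poisson interval, so its value is a limit and not an absence.

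**Figure D1:**
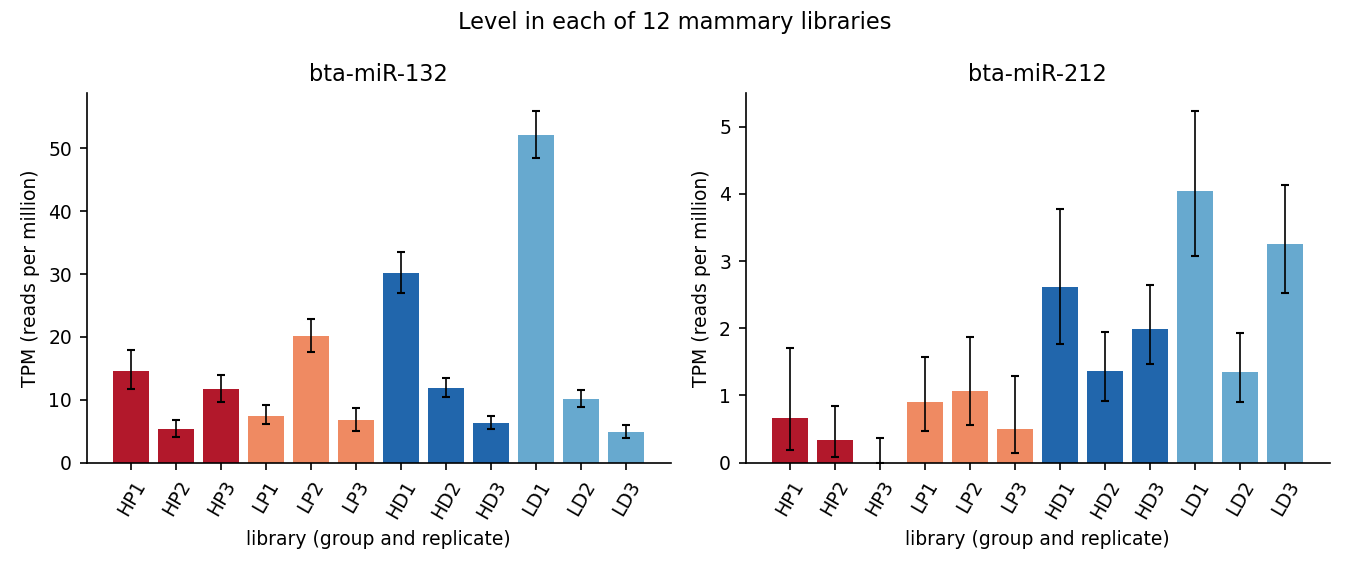
TPM of bta-miR-132 and bta-miR-212 in each of 12 libraries, coloured by group. Bars are the deposited values and whiskers are 95% Poisson intervals on inferred reads, which cover counting error only. The miR-212 bars of HP and LP stay at or below 1.07 TPM and those of HD and LD at or above 1.35 TPM, while the miR-132 bars of the 4 groups overlap and the highest, at 52.1 TPM, is an LD library.

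The next question was the order of the groups once libraries were put on a common scale with median-of-ratios size factors over the 12 libraries. Normalized miR-132 was 10.5 ± 4.99 TPM in HP cows, 11.4 ± 5.57 in LP cows, 12.5 ± 6.85 in HD cows and 18.1 ± 14.8 in LD cows (SD, n = 3 cows each). No neighbours in that order differed beyond their spread. Normalized miR-212 was 0.344 ± 0.348 TPM in HP cows, 0.864 ± 0.300 in LP cows, 1.70 ± 0.459 in HD cows and 2.89 ± 1.23 in LD cows (SD, n = 3 cows each). In the miR-212 order LP and HD did not overlap, as the highest LP library was at 1.12 and the lowest HD library at 1.22 normalized TPM.

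The comparison of stages asked whether lactating and non-lactating cows differed in the pair. MiR-212 was lower in lactation, by 1.03 on the log2(normalized TPM + 1) scale (SE 0.20, limma adjusted p = 0.00128, 95% interval -1.45 to -0.60), and all 6 lactating values lay below all 6 non-lactating ones. Of 388 miRNAs tested, 44.3% passed the adjusted threshold of 0.05 in this comparison, 86 higher and 86 lower in lactation, so passing it was common. Separation of the stages was not particular to miR-212. Deposited miR-155, for example, ranged from 135 to 213 TPM in lactation and from 318 to 595 TPM in the non-lactating period. The share of all miRNAs separated in this way was not counted. An exact two-sided permutation test of the 6 and 6 miR-212 values gave p = 0.00216, the smallest this design allows. The fold of mean TPM, non-lactating over lactating, was 4.23, and 3.8 after size factors. It rests on 36 inferred reads in the 6 lactating libraries and 261 in the 6 non-lactating ones.

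MiR-132, from the same primary transcript, did not pass this test. Its difference was -0.32 on the same log2 scale (SE 0.42, limma adjusted p = 0.561), with a 95% interval of -1.22 to 0.58 that leaves room for a change in either direction. It was -0.013 without LD1, -0.13 without HD1 and -0.14 without HP2, and -0.58 without LD3. The fold of mean TPM, non-lactating over lactating, was 1.75, and 1.4 after size factors. The exact two-sided permutation p over the 6 and 6 values was 0.487. Normalized miR-132 was 10.9 ± 4.76 TPM in the lactating and 15.3 ± 10.8 in the non-lactating cows (SD, n = 6 cows each). The spread was thus the wider in the non-lactating cows.

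The stage difference of miR-212 was also present in cows of each milk protein class. It was -1.03 (SE 0.28, limma adjusted p = 0.0150) for HP minus HD, where 31.2% of all miRNAs were called. It was -1.03 (SE 0.28, limma adjusted p = 0.0237) for LP minus LD, where 22.2% of all miRNAs were called. Each of these calls ended when certain single libraries were left out. For HP minus HD the limma adjusted p became 0.0699 without HP3 and 0.0603 without HD3, and for LP minus LD it became 0.117 without LP3 and 0.0959 without LD3. The LP minus LD call also ended without size factors (limma adjusted p = 0.0542) and with a pseudocount of 0.1 (limma adjusted p = 0.104). MiR-132 passed in neither, with -0.22 (SE 0.59, limma adjusted p = 0.825) for HP minus HD and -0.42 (SE 0.59, limma adjusted p = 0.628) for LP minus LD.

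Marker miRNAs of several cell types moved with stage too. The summed leukocyte markers (miR-142-3p, miR-142-5p, miR-150, miR-155 and miR-223, all detected in each library) ranged from 5146 to 8911 TPM in lactation and from 8262 to 20486 TPM in the non-lactating period. Within that sum miR-142-5p alone ranged from 3324 to 7406 TPM in lactation and from 7075 to 17588 TPM in the non-lactating period. It overlapped between stages, as did miR-142-3p, miR-150 and miR-223, whereas miR-155 did not. The summed epithelial markers ranged from 143945 to 236848 TPM in lactation and from 31079 to 80288 TPM in the non-lactating period. Of these, miR-148a alone ranged from 106978 to 191286 TPM in lactation and from 15769 to 53312 TPM in the non-lactating period. MiR-375 also separated the stages, at 2477 to 5743 TPM in lactation and 333 to 727 TPM in the non-lactating period. MiR-200a, miR-200b, miR-200c, miR-141, miR-429 and miR-205 overlapped between stages. In bulk tissue, fewer cells of a type and less RNA per cell cannot be told apart. The part of either cell type, or of the inferred read total, in the miR-212 difference was not tested.

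Milk protein percentage was compared within each stage with limma on normalized values. Only the cut-offs were those of the study, an unadjusted p under 0.05 with an absolute log2 change over 0.8. The study's own test was on read counts, so the calls below are not the outcome of its procedure. In lactation neither member was called, against 10.1% of all miRNAs. LP minus HP was 0.08 for miR-132 (SE 0.46, limma adjusted p = 0.961, 95% interval -0.95 to 1.11) and 0.47 for miR-212 (SE 0.25, limma adjusted p = 0.432, 95% interval -0.08 to 1.02). In the non-lactating period neither was called, against 3.35% of all miRNAs. LD minus HD was 0.29 for miR-132 (SE 0.64, limma adjusted p = 0.993, 95% interval -1.20 to 1.78) and 0.47 for miR-212 (SE 0.31, limma adjusted p = 0.993, 95% interval -0.24 to 1.19). All 4 intervals include 0. The miR-212 estimate for LP minus HP depends on the pseudocount, at 1.47 with 0.1 TPM added in place of 1 (limma adjusted p = 0.398) and 0.13 with 5 TPM added (limma adjusted p = 0.497), and for LD minus HD it was 0.22 with 5 TPM added.

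Whether the milk protein difference itself depended on stage was tested as an interaction over the 12 libraries. The interaction was -0.20 for miR-132 (SE 0.83, limma adjusted p = 0.993) and -0.0014 for miR-212 (SE 0.39, limma adjusted p = 0.997). Across all 388 miRNAs limma called 0, that is 0% of those tested, at an adjusted p under 0.05, and 20 had an unadjusted p under 0.05.

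**Figure D2:**
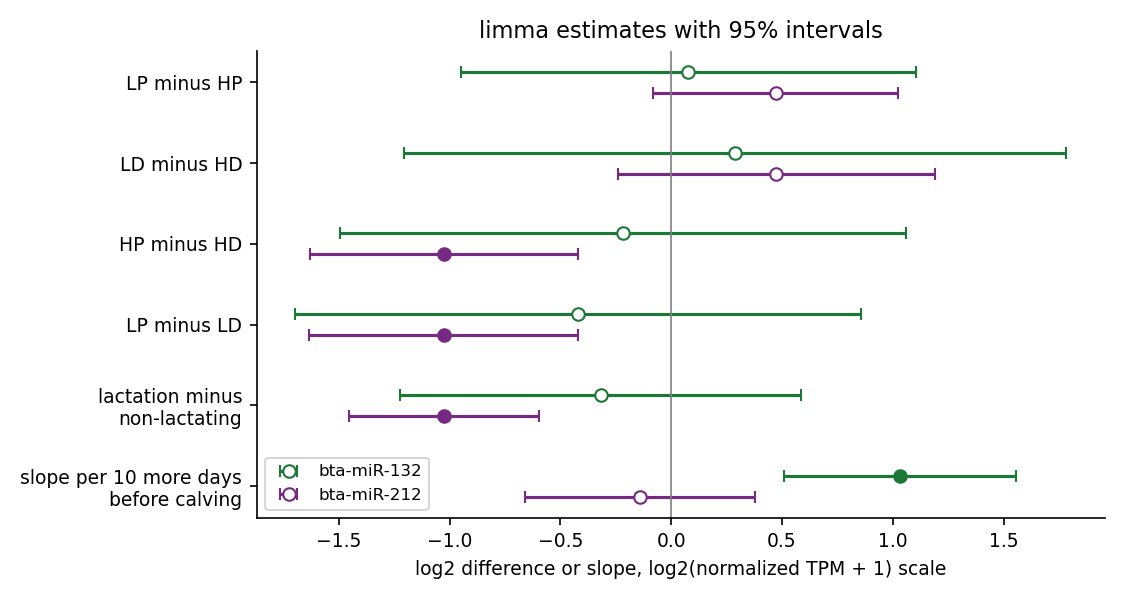
Estimated differences of bta-miR-132 (green) and bta-miR-212 (purple) in each comparison, with the slope per 10 more days before calving in the lowest row, on the log2(normalized TPM + 1) scale. Whiskers are 95% intervals from limma and filled points passed the call rule of their comparison. The filled points are miR-212 in the stage comparisons, each at -1.03, and miR-132 in the slope on days, at 1.03.

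Among the 6 non-lactating cows the order of miR-132 followed the days left before calving. At 39 days it read 52.1 TPM, at 35 days 30.1 TPM and at 29 days 11.9 TPM. At 23, 21 and 20 days it read 10.2, 6.32 and 4.88 TPM. Each cow nearer to calving thus had a lower deposited value than the one before, a 10.7-fold span from LD1 to LD3. The cows at 35 and 39 days had a mean of 41.1 TPM and the 4 cows at 20 to 29 days a mean of 8.32 TPM. After size factors over the 6 libraries the span was 5.34-fold, and the means were 28.6 and 9.73 normalized TPM. The order was then no longer complete, as LD2 at 23 days stood at 14.2 normalized TPM and HD2 at 29 days at 11.0.

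MiR-212 showed no such order. From the cow farthest from calving to the nearest it read 4.05, 2.62, 1.36, 1.35, 1.99 and 3.25 TPM. Its values were high at both ends and low at 29 and 23 days.

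**Figure D3:**
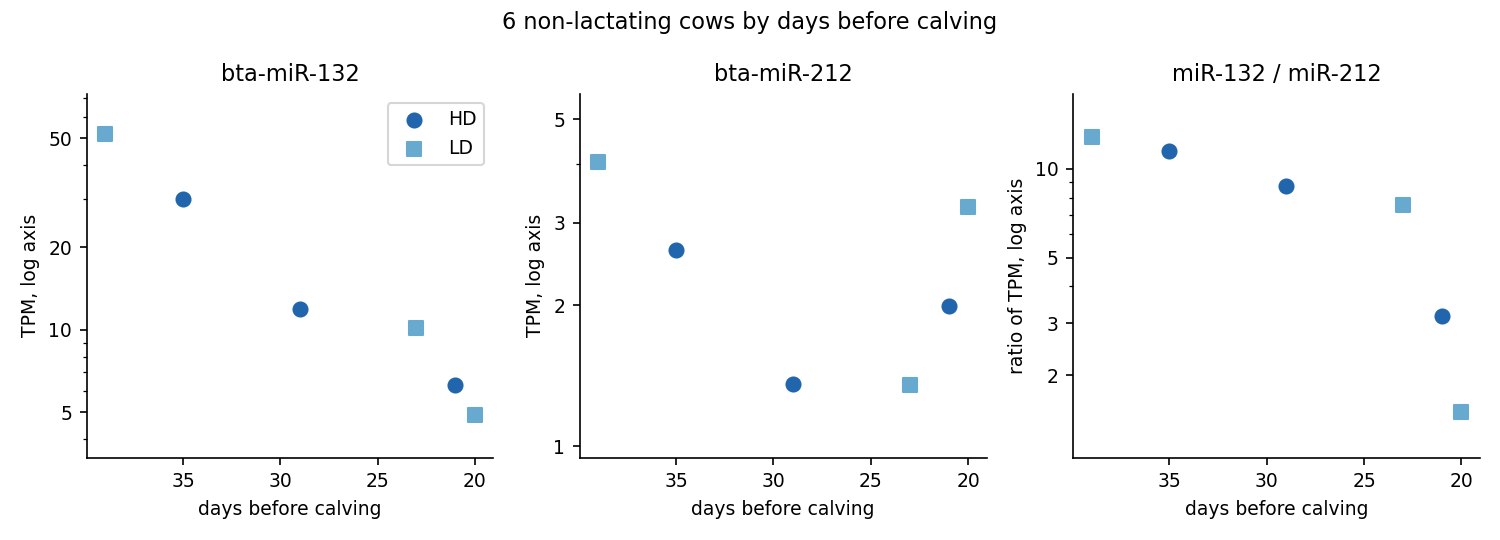
Deposited TPM of bta-miR-132 and bta-miR-212, and the ratio of the 2, in 6 non-lactating cows against days before calving, with log vertical axes and calving towards the right. Circles are HD cows and squares LD cows, 1 point a cow. MiR-132 falls in order from 52.1 to 4.88 TPM, miR-212 stays between 1.35 and 4.05 TPM without an order, and the ratio falls in order from 12.9 to 1.5.

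The limma slope of miR-132 was 1.03 per 10 more days before calving on the log2(normalized TPM + 1) scale (SE 0.23, adjusted p = 0.0369, 95% interval 0.51 to 1.56), a 2.05-fold step. In this fit 10.8% of the 388 miRNAs were called, 20 higher and 22 lower farther from calving. The miR-132 slope ranked 15 of 388 from the most positive, and its p ranked 19. Without HD1 its limma adjusted p was 0.0932, without HD3 0.123, without LD1 0.220 and without LD3 0.114, so the call rested on each of these 4 cows, while the slope stayed between 0.90 and 1.18. Without size factors 120 miRNAs were called, 114 of them higher farther from calving.

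The miR-212 slope was -0.14 per 10 more days (SE 0.23, limma adjusted p = 0.728, 95% interval -0.66 to 0.38). Size factors mattered here: without them the median slope of all miRNAs was 0.41, against -0.024 with them. Relative to that median, the slope without size factors was 1.12 for miR-132 and -0.16 for miR-212.

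**Figure D4:**
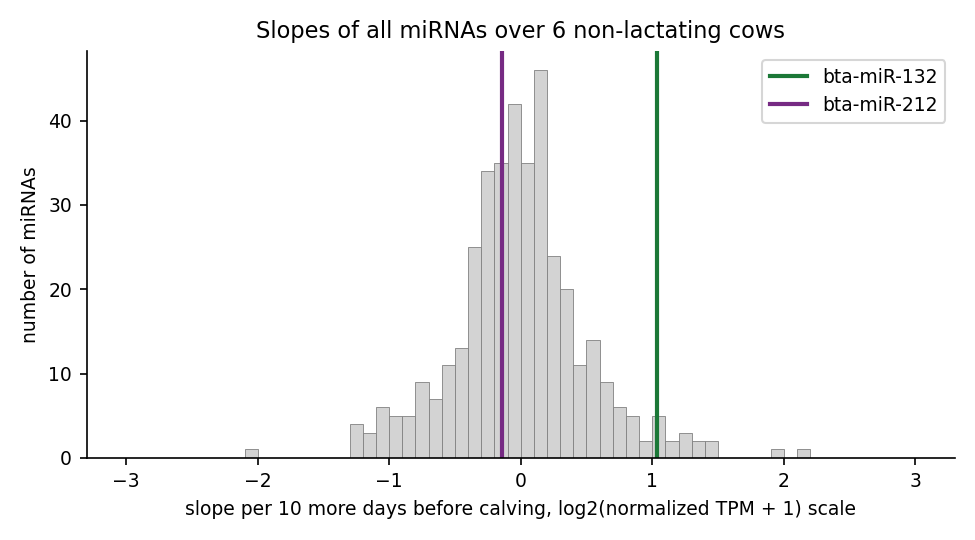
Distribution of the slopes of 388 miRNAs on days before calving over 6 non-lactating cows, per 10 more days on the log2(normalized TPM + 1) scale. Vertical lines mark bta-miR-132 at 1.03, in the right tail of the distribution, and bta-miR-212 at -0.14, near its middle.

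Correlations over the 6 cows were computed as a check on the slope, in a family of 5 relations. Normalized miR-132 on the log2 scale correlated with days before calving with Pearson r = 0.927 (exact permutation p = 0.0194, Benjamini-Hochberg adjusted 0.0486). Spearman's rho was 0.943 (exact permutation p = 0.0167, adjusted 0.0417). Without HD1 and LD1, the 2 cows farthest from the median day, r was 0.584 (exact permutation p = 0.583) and rho 0.8 over the remaining n = 4 cows, for which 0.0833 is the smallest p possible, so the relation was not shown without these 2 cows. For miR-212 r was -0.262 (exact permutation p = 0.656, adjusted 0.722) and rho -0.257 (exact permutation p = 0.658, adjusted 0.714) over the 6 cows, and r was -0.837 (n = 4, exact permutation p = 0.0833) without the same 2.

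A perfect order with days was not particular to miR-132. On deposited TPM 12 of 388 miRNAs rose in all steps away from calving and 2 fell, and after size factors 3 rose and 6 fell. The same 2 cows also differed from the other non-lactating cows in other respects. HD1 and LD1 had inferred read totals of 11048000 and 14327000, against 20896000 to 23578000 in the other non-lactating libraries. Their size factors over the 6 libraries were 1.36 and 1.49, against 0.717 to 1.08. Over the 6 cows, days before calving correlated with the size factor at r = 0.969 and with the inferred read total at r = -0.834. With days after dry-off the correlation was r = -0.740. Scaling and the inferred read total were thus confounded with days, and the 2 clocks were partly confounded.

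Summed deposited TPM of cell type markers was also set against days, each sum weighted towards its most abundant members. The summed epithelial markers were 59704 and 80288 TPM at 35 and 39 days and 31079 to 52971 TPM at 20 to 29 days. The summed endothelial markers (miR-126-3p and miR-126-5p, both detected in each library) were 8809 and 10738 TPM at 35 and 39 days and 4676 to 6570 TPM at 20 to 29 days. Leukocyte sums were 10428 and 20486 TPM against 8262 to 11209 TPM, and fibroblast stroma sums (miR-199a-3p, miR-199a-5p, miR-199b and miR-214, all detected) 22878 and 21378 TPM against 8966 to 24231 TPM. Both stroma values at 35 and 39 days thus lay within the range of the others. The leukocyte value of HD1 did too, while that of LD1, the cow with the highest miR-132, lay above it. On the normalized scale the median slope was -0.061 for the 8 epithelial and -0.21 for the 2 endothelial markers, against -0.024 over all miRNAs. The part of the inferred read total, scaling, days after dry-off or tissue makeup in the miR-132 slope was not tested.

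A ratio of miR-132 to miR-212 within a library needs no scaling between libraries. The ratio of deposited TPM was 12.9 in LD1, 11.5 in HD1, 8.74 in HD2, 7.54 in LD2, 3.18 in HD3 and 1.5 in LD3. It fell in every step towards calving. This relation was added after the values had been seen. For the correlation 1 TPM was added to both deposited values, so that log2 ratio is not free of scaling. It gave r = 0.911 (exact permutation p = 0.00278, adjusted 0.0139) and rho = 1 (exact permutation p = 0.00278, the smallest that 6 cows allow). With 0.1 TPM added r was 0.851, and with 5 TPM added it was 0.969 (exact permutation p = 0.00278 for each). Without HD1 and LD1 r was 0.821 (n = 4, exact permutation p = 0.0833), and the order of the remaining 4 cows was kept. In lactation the ratio was 22.1 in HP1, 16.1 in HP2, 8.31 in LP1, 18.8 in LP2 and 13.4 in LP3, and HP3 gives none because miR-212 was at 0 there. With 1 TPM added to both values, the log2 ratio averaged 2.83 ± 0.654 in the lactating and 2.16 ± 1.11 in the non-lactating cows (SD, n = 6; exact two-sided permutation p = 0.242). This difference of 0.67 depends on what is added: it was 1.69 with 0.1 TPM added (exact permutation p = 0.0303) and 0.035 with 5 TPM added (exact permutation p = 0.944).

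By milk protein class the log2 ratio differed by -0.42 for LP minus HP (exact permutation p = 0.6) and by -0.24 for LD minus HD (exact permutation p = 0.9). With 3 cows a group the smallest p possible is 0.1. The pair was also compared directly across cows. In lactation r between miR-132 and miR-212 was 0.344 (exact permutation p = 0.519, adjusted 0.722) and rho 0.371 (exact permutation p = 0.497, adjusted 0.714), with r = -0.0227 without HP2 and LP2. In the non-lactating period r was -0.215 (exact permutation p = 0.722, adjusted 0.722) and rho -0.2 (exact permutation p = 0.714, adjusted 0.714), with r = -0.119 without LD1 and LD3. Each rests on 6 cows, so a relation between the 2 miRNAs was not shown at this size.

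To place each member among the other miRNAs, correlations over the 12 libraries were ranked among miRNAs with a mean of at least 10 TPM. These are descriptions, since all values of a library share its read total and scaling. The 5 most like miR-132, of 233, were miR-494 (r = 0.731), miR-495 (r = 0.700), miR-1185 (r = 0.675), miR-411c-5p (r = 0.649) and miR-1296 (r = 0.618). MiR-494, miR-495 and the miR-411 family belong to the large imprinted miRNA cluster between DLK1 and DIO3 in mammals. The slopes of the 5 on days before calving were 0.74, 0.68, 0.50, 0.39 and 0.50 on the log2 scale per 10 days, in the same order, and limma called none of them (adjusted p from 0.0836 to 0.188). Among the 387 other miRNAs at any level, miR-212 ranked 113 for likeness to miR-132, with r = 0.195.

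The 5 miRNAs most like miR-212, of 234, were miR-155 (r = 0.949), miR-146b (r = 0.899), miR-16b (r = 0.859), miR-146a (r = 0.859) and miR-361 (r = 0.854). MiR-155, miR-146a and miR-146b are known to be induced in immune cells by inflammatory stimuli. Within stages the correlation of miR-155 with miR-212 was 0.956 over the 6 lactating and 0.838 over the 6 non-lactating libraries. MiR-155 was picked for its r over these same 12 libraries, so the values within stages are not separate support. The lactating value also rests on 0 to 12 miR-212 reads a library. Over the same lactating and non-lactating libraries it was 0.760 and 0.614 for miR-146b, 0.832 and 0.507 for miR-16b, 0.606 and 0.788 for miR-146a, and 0.765 and 0.286 for miR-361, all below the values over 12 libraries. All 5 were lower in lactation. Their selection by likeness to miR-212 over both stages favoured this, since miR-212 itself separated the stages, so these differences are not separate support. The log2 difference was -1.29 for miR-155 (limma adjusted p = 0.000415), -3.07 for miR-146b (limma adjusted p = 0.000145) and -1.76 for miR-146a (limma adjusted p = 0.00593). It was -0.95 for miR-16b (limma adjusted p = 0.0143) and -1.12 for miR-361 (limma adjusted p = 0.000875). MiR-132 ranked 168 of 387 for likeness to miR-212.

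**Figure D5:**
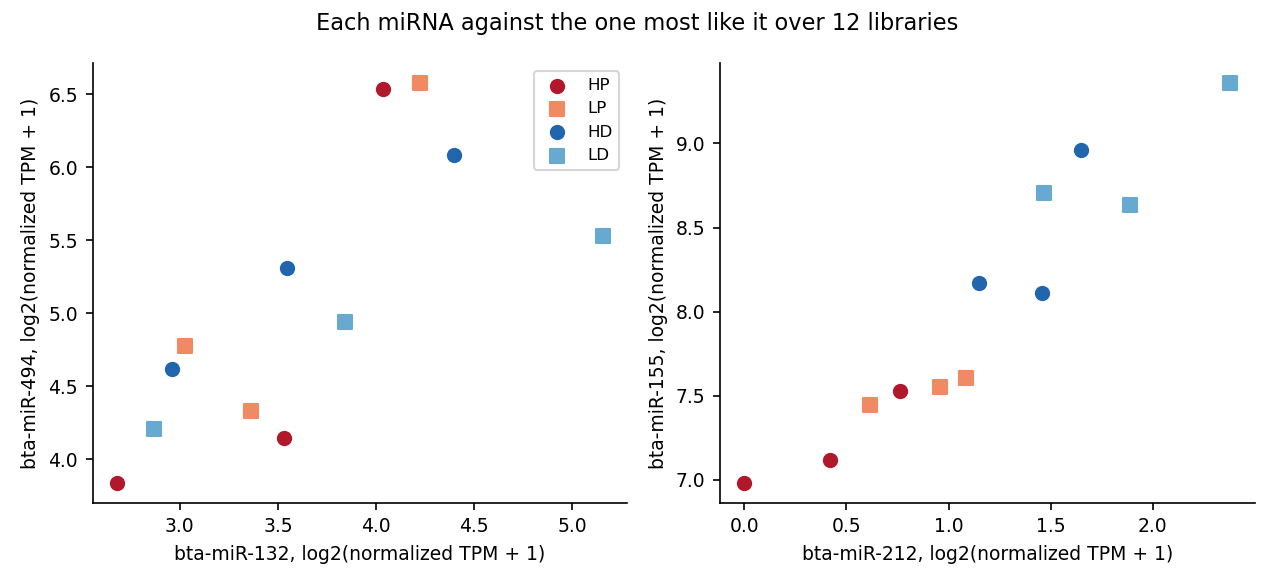
Each miRNA against the one most like it, as log2(normalized TPM + 1) in 12 libraries coloured by group. MiR-494 follows miR-132 with r = 0.731 and a wide scatter, and miR-155 follows miR-212 with r = 0.949, with the lactating libraries at the lower left.

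The inducible list holds 9 miRNAs known to respond to stimulation of immune cells or neurons, the settings in which miR-132 and miR-212 are best known. All 9 were measured. In lactation 6 were lower, namely miR-146a, miR-146b, miR-155, miR-147, miR-9-5p and miR-134, and 0 were higher, where 44.3% of all miRNAs were called in either direction, with a median of -1.29 log2 over the list against -0.011 over all miRNAs. MiR-147 ranged from 7.96 to 40.9 TPM in lactation and from 39.1 to 271 TPM in the non-lactating period. MiR-134, as rare as miR-212, ranged from 0.50 to 1.27 TPM in lactation and from 1.77 to 5.61 TPM in the non-lactating period. MiR-21-5p, miR-223 and miR-138 were not called. The summed list, mostly miR-21-5p, was 17501 to 26718 TPM in lactation and 22674 to 48546 TPM in the non-lactating period. For LP minus HP 2 of the 9 were called, miR-146a and miR-146b, both higher in LP, against 10.1% of all miRNAs, and for LD minus HD 0 were, against 3.35%. On days before calving 1 was called, against 10.8% of all miRNAs, miR-146b, with a slope of -1.18 log2 per 10 more days (limma adjusted p = 0.0369), opposite in sign to that of miR-132.

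The endothelial and vessel list holds 9 miRNAs known from endothelium and vessel growth, of which 8 were measured. Of these, miR-126-3p and miR-126-5p were higher in lactation, and 3, miR-221, miR-296-3p and miR-503-5p, were lower, against 44.3% of all miRNAs called. MiR-126-3p, the main endothelial miRNA, ranged from 10643 to 16499 TPM in lactation and from 4654 to 10711 TPM in the non-lactating period. The median of the list was -0.42 log2, against -0.011 over all miRNAs. It held 0 calls for LP minus HP, 1 for LD minus HD (miR-126-5p, higher in LD) and 0 on days before calving.

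The shares of all miRNAs called, to be read beside the counts of the other marker lists, were 44.3% for stage, 10.1% for LP minus HP, 3.35% for LD minus HD and 10.8% for days. Of these lists, 7 of 8 epithelial miRNAs were higher in lactation, with miR-205 not called, and 1, miR-141, was lower farther from calving. Of 5 leukocyte miRNAs, miR-142-5p and miR-155 were lower in lactation, miR-150 was lower in LP than in HP, miR-142-3p and miR-142-5p were higher in LD than in HD, and miR-150 was higher farther from calving. Both endothelial markers, miR-126-3p and miR-126-5p, stand in the list above. Of 4 stroma miRNAs, miR-199a-3p and miR-214 were lower in lactation, and miR-199a-5p was higher farther from calving. Of 3 red cell miRNAs, miR-451 and miR-144 were higher in LP than in HP, and their summed level with miR-486 was 413 to 6127 TPM over the non-lactating libraries. Of 2 smooth muscle miRNAs, miR-143 was higher in LP than in HP. None of the 3 measured of 4 skeletal muscle miRNAs was called by limma in these comparisons, and their sum stayed between 90.2 and 735 TPM. Of 3 neuronal miRNAs only miR-9-5p was in the table, at 4.15 to 13.6 TPM in lactation and 19.1 to 34.97 TPM in the non-lactating period.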

How the data were processed

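Small RNA of 12 mammary biopsies was sequenced as single reads. The authors trimmed reads with Cutadapt and Trimmomatic, mapped them with Bowtie to the bovine assembly, and counted miRBase miRNAs with miRDeep2. The authors deposited these as RPM in 1 table, under the name TPM. Reads can be counted at each precursor of a miRNA, so the entry of highest mean was kept for each of 388 mature miRNAs. Columns carried group and replicate as in the labels, and 0 columns were left unused. Replicates are separate cows.

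Values were divided by median-of-ratios size factors, and log2(value + 1) was fitted with limma 3.58.1 (R 4.3.3, empirical Bayes with a mean-variance trend) over all 388 miRNAs, with Benjamini-Hochberg adjustment. HP with LP and HD with LD were fitted by stage, stage and interaction over 12 libraries, days over 6. Permutation tests used scipy 1.17.1. The limma fit was tested on simulated log2 values with planted changes. That test left out size factors and the pseudocount, and its noise was set and not taken from these data. The study's own test was on read counts, which were not used here. The read total of a library was inferred from value steps. In each library 93.9% to 100% of the values above 0 were whole multiples of the step within 0.0075 TPM. The step was itself chosen so that low values would be multiples of it, so this share is not a separate check.

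The members, tests and lists were chosen with earlier results of these data known. Named miRNAs are the members, the 5 most correlated with each, and list members that were called or held most of a list's sum. The lists were inducible, endothelial and vessel, and markers of epithelium, leukocytes, red cells, skeletal muscle, smooth muscle, endothelium, stroma and neurons. MiR-155, miR-223, miR-9-5p and the miR-126 pair stand in more than 1 list. Mature sequences and seed sharing were not analysed here. No pooled correlation of the pair over 12 libraries was tested, since the stages do not overlap in miR-212.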

Additional observations from a re-analysis of the deposited data

How the results depend on the processing

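The miR-212 stage difference kept its direction and its call under all 20 alternatives tried, with log2 differences of -2.02 to -0.37 and limma adjusted p of 0.000978 to 0.00556. Leaving out the cows 35 and 39 days before calving, an alternative chosen after seeing the data, gave -0.99 for miR-212 (limma adjusted p = 0.00483) and 0.17 in place of -0.32 for miR-132. The miR-212 call for LP minus LD was lost without size factors (limma adjusted p = 0.0542) and with a pseudocount of 0.1 (0.104). Using days after dry-off in place of days before calving gave a slope of -2.01 for miR-132 (limma adjusted p = 0.180), 0.28 for miR-212 and 1 called miRNA. The miR-212 slope was 0.25 without size factors, and its interaction 0.15 without size factors and 0.83 with a pseudocount of 0.1. Its difference for LP minus HP was 1.47 with that pseudocount and 0.13 with 5. With 0.1 as the pseudocount the log2 ratio differed by 1.69 between stages (exact permutation p = 0.0303), and without size factors the non-lactating correlation of the pair was 0.44. The causes were not tested.

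Counts of called miRNAs moved further. For LP minus HP there were 22 with a pseudocount of 5, against 39. For LD minus HD there were 7 with it and 3, all lower in LD, without size factors, against 13. For stage there were 114 among the 234 miRNAs with a mean of at least 10 TPM, where fewer were tested, against 172. For days there were 120 without size factors, 21 without the trend and 24 with phenotype as a second term, against 42.

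Leaving out each library in turn gave miR-132 ranges of -0.29 to 0.39 for LP minus HP, -0.28 to 0.83 for LD minus HD, -0.58 to -0.013 for stage, -0.75 to 0.39 for the interaction, 0.90 to 1.18 for days, -0.54 to 0.15 for HP minus HD and -0.95 to 0.18 for LP minus LD. MiR-212 ranged from 0.27 to 0.65 for LP minus HP, from 0.24 to 0.70 for LD minus HD, from -0.23 to 0.24 for the interaction and from -0.41 to 0.10 for days. The log2 ratio for LD minus HD ranged from -0.92 to 0.54, and the non-lactating correlation of the pair from -0.56 to 0.46. Called miRNAs numbered 24 (without LP1) to 53 for LP minus HP, 6 (without HD2) to 36 (without LD1) for LD minus HD, where 8 were called without LD2, and 0 to 39 for days. For days 0 were called by limma without HD1 and 0 without LD1, with 84 and 79 at an unadjusted p under 0.05, and 6 without HD3 and 7 without LD3.

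Deviations of same-numbered HP and LP libraries correlated at -0.20, -0.26 and 0.0093, so replicate numbers did not pair these cows. Those of HD and LD gave 0.55, -0.11 and 0.50, and numbers there followed days before calving. With a replicate block the limma adjusted p for LP minus HP was 0.972 for miR-132 and 0.402 for miR-212, for LD minus HD 0.810 and 0.591, and for stage 0.486 and 0.00233. The block called 34, 17 and 170 miRNAs in these 3 comparisons and changed no call of either member. MiR-212 could not be fitted above a mean of 10 TPM, since its mean is 1.51. The planned count tests were not run, as the deposited values are not counts and the recovery of whole reads from value steps was not established. The low reads of miR-212 in lactation, 0 to 12 a library, limit the precision of its differences there.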
